A study of Mus musculus with 9 samples.

Results

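The sites compared here are those that still carried both histone H3 trimethylated at lysine 4 (H3K4me3) and histone H3 trimethylated at lysine 36 (H3K36me3) in mouse spermatocytes with either of 2 catalytic substitutions in PRDM9. The members are all 412 intervals of the double-marked peak list of the EP mutant and all 243 of the EK mutant, 655 of the 32986 intervals in the 6 deposited lists. They were divided by position alone. An interval was shared when it overlapped an interval of the other mutant by at least 1 bp, and EP-only or EK-only otherwise, and each class was divided again by overlap with the wild-type double-marked list. The shared intervals matched 1 to 1, which gave 508 distinct sites, of which 147 were shared, 265 EP-only and 96 EK-only.

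EP mice, genotype PRDM9-EP/EP, carry proline in place of glutamate 360 of PRDM9 and belong to the strain C57BL/6J-Prdm9<em2Kpgn>/Kpgn. EK mice, genotype PRDM9-EK/EK, carry lysine there and belong to the strain C57BL/6J-Prdm9<em3Kpgn>/Kpgn. Both are homozygous on the C57BL/6J background and are named severe catalytic hypomorphs in the labels. The reference is wild-type C57BL/6J (B6, genotype PRDM9-WT), and all cells were spermatocytes of animals 14 days after birth with no treatment given in the labels. Each H3K36me3 group has 1 library and each H3K4me3 group has 2, with 1 list per group. There was therefore no replicate of any double-marked list and no test between genotypes. The intervals beside shares and medians are at the 95% level and cover counting of peaks only. In the titles, every B6 library, the EP pair for H3K4me3 and EK replicate 1 for H3K4me3 are marked as re-analysed, and the remaining libraries are not. Genotype and library cannot be told apart in any difference between the lists.

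PRDM9 is a meiosis-specific histone methyltransferase whose zinc fingers bind DNA at recombination hotspots. It trimethylates H3K4 and H3K36 on the surrounding nucleosomes, and nucleosomes with both marks distinguish these hotspots from active promoters, which carry H3K4me3, and from transcribed gene bodies, which carry H3K36me3 laid down by SETD2. A hotspot that lies inside a transcribed gene can therefore hold H3K36me3 from either enzyme, and which enzyme placed the mark at the sites below was not tested. The lists hold positions only and cover sites already known to depend on PRDM9, so neither mark could be recorded anywhere else. For the same reason the labelled cell type could not be checked on these lists: the spans of 4 spermatocyte, 3 Sertoli cell, 3 Leydig cell and 3 spermatogonial marker genes held no double-marked interval of either mutant.

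Promoter windows were touched by 5 of 412 EP intervals (1.21%) and 1 of 243 EK intervals (0.412%), beside 1.35% of EP and 1.51% of EK H3K4me3 peaks and 0.899% of B6 double-marked peaks. The protein-coding windows are shown with their sequence because they are the annotated promoters that a double-marked interval reached. A promoter window runs from 250 bases before to 50 bases after a RefSeq transcription start (GRCm38.p6, the assembly of mm10, coordinates counted from 1), and 32851 windows were searched. Windows of 5 genes lay under an EP interval, 1 of them also under an EK interval, and 3 of the genes were protein-coding. These were Dennd1b (encoding a guanine nucleotide exchange factor for Rab35) at chr1:138967471-138967770, Sumo3 (encoding a ubiquitin-like modifier) at chr10:77613459-77613758 and Trpv3 (encoding a cation channel) at chr11:73267270-73267569, all on the plus strand. Capitals mark the bases under a mutant double-marked interval.
Dennd1b: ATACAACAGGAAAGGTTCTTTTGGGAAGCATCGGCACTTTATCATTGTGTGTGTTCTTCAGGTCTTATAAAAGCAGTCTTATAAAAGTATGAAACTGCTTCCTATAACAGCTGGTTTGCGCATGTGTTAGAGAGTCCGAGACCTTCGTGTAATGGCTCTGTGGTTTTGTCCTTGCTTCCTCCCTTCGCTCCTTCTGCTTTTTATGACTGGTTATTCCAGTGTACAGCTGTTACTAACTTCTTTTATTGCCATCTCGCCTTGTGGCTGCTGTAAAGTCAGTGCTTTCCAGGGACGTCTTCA
Sumo3: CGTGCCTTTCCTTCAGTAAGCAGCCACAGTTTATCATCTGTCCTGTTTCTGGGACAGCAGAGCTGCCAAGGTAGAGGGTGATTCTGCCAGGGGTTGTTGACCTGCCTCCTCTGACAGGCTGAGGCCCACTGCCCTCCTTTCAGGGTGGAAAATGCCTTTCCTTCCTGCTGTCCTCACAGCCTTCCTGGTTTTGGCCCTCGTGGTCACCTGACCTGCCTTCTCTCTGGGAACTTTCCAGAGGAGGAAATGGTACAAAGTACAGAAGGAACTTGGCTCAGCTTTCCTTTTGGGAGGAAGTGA
Trpv3: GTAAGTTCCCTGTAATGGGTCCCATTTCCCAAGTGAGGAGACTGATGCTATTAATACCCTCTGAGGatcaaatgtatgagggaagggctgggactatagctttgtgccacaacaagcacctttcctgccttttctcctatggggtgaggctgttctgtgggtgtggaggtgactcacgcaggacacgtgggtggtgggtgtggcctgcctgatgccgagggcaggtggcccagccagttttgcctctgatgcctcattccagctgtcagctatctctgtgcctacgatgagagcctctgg
The Dennd1b window lay whole under the intervals of both mutants. It held 7 CG dinucleotides, which is the median of all windows, and 52.1% of windows held as many or more. The Sumo3 window lay whole under an EP-only interval and held 2 CG dinucleotides (85.9% of windows held as many or more), and the Trpv3 window had its first 66 bases, before the start site, under an EP-only interval and held 4 (68.6%). CG reads the same on both strands, and its count is a description of the window. The Dennd1b and Sumo3 starts were internal to the gene spans, at 1.84% and 62.6% of the span from its 5′ end as measured at the interval's midpoint. The remaining windows belonged to the long noncoding RNA genes Gm46165, under the EP interval of a shared site, and Gm36841, under an EP-only interval. All 5 windows were double-marked in B6. No EK-only interval (of 96) touched a searched promoter window. Of 1005 microRNA hairpins, those of Mir6961 (EP-only) and Mir7014 (EK-only) overlapped an interval, and neither was double-marked in B6. The EP interval ended inside the Mir6961 hairpin, which was therefore covered only in part.

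EP had more double-marked sites than EK. Because shared intervals matched 1 to 1, they necessarily made up a larger part of the shorter EK list. The share of H3K4me3 peaks that were double-marked, which is the background for the counts below, was 11.1% in EP, 7.35% in EK and 37.4% in B6. Of the EP intervals, 147 of 412 were shared with EK (35.7%, Wilson interval 31.2 to 40.4%). Of the EK intervals, 147 of 243 were shared with EP (60.5%, 54.2 to 66.4%). The rule's limit of 1 bp decided no pair: the smallest overlap of a shared pair was 126 bp and every pair had over 50% of its shorter interval in common. The smallest gap from an EP-only interval to any EK interval was 32 bp, as was that from an EK-only interval to any EP interval. Within 5 kb of an interval of the other mutant lay 4 EP-only and 2 EK-only intervals.

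The classes differed in how often B6 carried both marks at the same place. Shared sites were at a B6 double-marked peak in 118 of 147 cases (80.3%, 73.1 to 85.9%). EP-only sites were so in 191 of 265 (72.1%, 66.4 to 77.1%) and EK-only sites in 40 of 96 (41.7%, 32.3 to 51.7%). EK-only sites thus had the lowest share. The H3K4me3 peaks from which the lists came differed in the same direction, with 38.3% of the EP peaks (36.8 to 39.9%, 1420 of 3703) but 24.3% of the EK peaks (22.9 to 25.8%, 804 of 3307) at a B6 double-marked peak. Read in the other direction, 118 of the 158 EK intervals at a B6 double-marked peak were shared with EP (74.7%, 67.4 to 80.8%), against 29 of the 85 EK intervals elsewhere (34.1%, 24.9 to 44.7%). For EP the same shares were 38.2% (32.9 to 43.7%, 118 of 309) and 28.2% (20.4 to 37.5%, 29 of 103). The intervals that lacked a double mark in B6 nearly all had an H3K4me3 peak there, in 27 of 29 shared, 74 of 74 EP-only and 55 of 56 EK-only cases. Over these intervals H3K36me3 was therefore listed in a mutant and not in wild type. Whether the B6 H3K4me3 peak was double-marked elsewhere along its length was not examined.

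**Figure D1:**
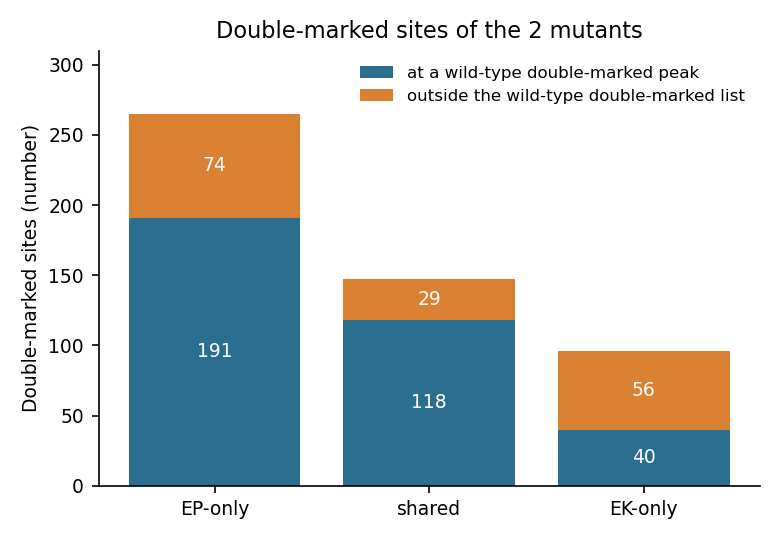
Number of double-marked sites (vertical axis) that were EP-only, shared or EK-only, with the part at a wild-type double-marked peak in blue and the part outside that list in orange. The orange part is 74 of 265 EP-only, 29 of 147 shared and 56 of 96 EK-only sites. There is 1 double-marked list per genotype, so the bars have no error.

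Where 1 mutant alone was double-marked, the other was listed over that interval either with H3K4me3 alone or with no peak. Of the 265 EP-only sites, 148 had an EK H3K4me3 peak (55.8%, 49.8 to 61.7%) and 117 had none. Of the 96 EK-only sites, 69 had an EP H3K4me3 peak (71.9%, 62.2 to 79.9%) and 27 had none. Over all H3K4me3 peaks, 71.8% of those of EP (2659 of 3703) overlapped a peak of EK. Of those of EK, 80.1% (2650 of 3307) overlapped a peak of EP. The EP-only and EK-only shares are lowered by construction, because every shared site, which has H3K4me3 in both mutants, is left out. With shared sites included, 295 of 412 EP and 216 of 243 EK double-marked intervals had an H3K4me3 peak of the other mutant. The EK-only sites at a B6 double-marked peak had the highest share, 33 of 40 (82.5%, 68.0 to 91.2%), and those elsewhere had 36 of 56 (64.3%, 51.2 to 75.5%). For EP-only sites the shares were 56.0% (107 of 191) and 55.4% (41 of 74). When sites lacking H3K4me3 in the other mutant were left out, the shared intervals made up 147 of 295 in EP (49.8%, Wilson interval 44.2 to 55.5%). In EK they made up 147 of 216 (68.1%, 61.6 to 73.9%). The EP-only sites without an EK H3K4me3 peak had B6 H3K4me3 peaks with a median width of 2176 bp (2073 to 2266 bp), and those with one 2098 bp (1697 to 2351 bp). The EK-only sites without an EP H3K4me3 peak had a median of 793.5 bp (614 to 1004 bp) over the 26 that had a B6 peak, and those with one 949 bp (780 to 1541 bp). Within each class these intervals overlap.

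At B6 double-marked peaks, EK intervals were wider at shared sites, with a median of 914 bp (826 to 1008 bp), than at EK-only sites, with 635 bp (442 to 773 bp). Outside the B6 list their medians were 628 bp (468 to 859 bp) and 603.5 bp (494 to 743 bp). Over whole classes, the median double-marked width was 980 bp in EP (799 to 1091 bp) and 857 bp in EK (761 to 962 bp) at shared sites. It was 844 bp at EP-only sites (789 to 900 bp), an interval that overlaps the shared one, and 607 bp at EK-only sites (518 to 724 bp), an interval that does not. The B6 H3K4me3 peaks at these sites had medians of 2201 bp at shared, 2163 bp at EP-only and 874 bp at EK-only sites (intervals 1741 to 2509, 2043 to 2237 and 782 to 1151 bp). Outside the B6 double-marked list these medians were 689 bp at shared, 1128.5 bp at EP-only and 861 bp at EK-only sites (intervals 593 to 2123, 834 to 1895 and 743 to 1004 bp). At it they were 2394, 2263 and 1332 bp (2033 to 2607, 2165 to 2380 and 780 to 2261 bp). On each side of the list the intervals of the 3 classes overlapped. EP-only sites outside the B6 double-marked list had a median of 673 bp (534 to 796 bp) against 899 bp at it (828 to 950 bp). For the EP intervals of shared sites the medians were 643 bp (506 to 1067 bp) and 1037 bp (922 to 1171 bp), with overlapping intervals. Every double-marked interval lay inside an H3K4me3 interval of its own mutant, and 205 of 412 in EP and 124 of 243 in EK had both of its borders, so many widths are those of the H3K4me3 peak. Equal borders were more frequent outside the B6 double-marked list, in 53 of 74 EP-only and 41 of 56 EK-only sites, than at it, in 80 of 191 and 15 of 40.

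**Figure D2:**
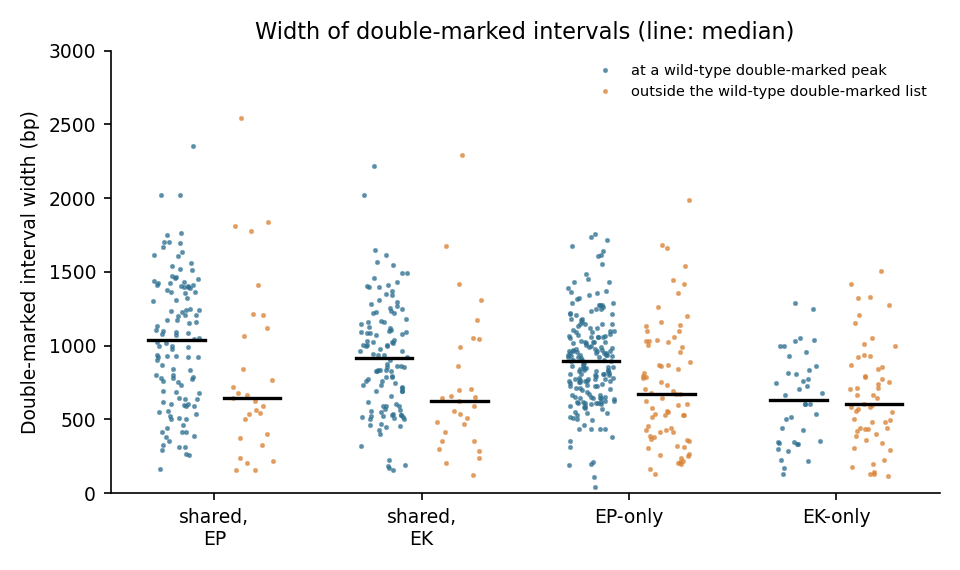
Width in bp of each double-marked interval (points) by class, with shared sites drawn once for EP and once for EK, blue for sites at a wild-type double-marked peak and orange for the others; black lines are medians and the horizontal spread of points is arbitrary. The blue medians are 1037, 914, 899 and 635 bp from left to right and the orange medians 643, 628, 673 and 603.5 bp.

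At the 147 shared sites the intervals of the 2 mutants largely coincided at most sites and differed in extent at others. The EP interval was wider at 90 sites (61.2%, 53.2 to 68.7%), the EK interval at 42 and neither at 15. The median ratio of EP to EK width was 1.05 (1.02 to 1.11) and ranged from 0.303 to 3.25. The H3K4me3 intervals behind them had a median ratio of 1.04 (1.00 to 1.08), so H3K4me3 alone showed a similar ratio. Midpoints were a median of 57.5 bp apart, and at 94 sites at most 100 bp apart. The overlap was a median of 84.3% of the longer interval, with a lower quartile of 67.4% and a minimum of 30.3%, and at 14 sites both borders were identical. Where only EP was double-marked and both mutants had H3K4me3, the EP H3K4me3 interval was wider by a median ratio of 1.10 (1.06 to 1.15, n = 148), against 1.00 (0.957 to 1.04, n = 69) where only EK was double-marked.

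**Figure D3:**
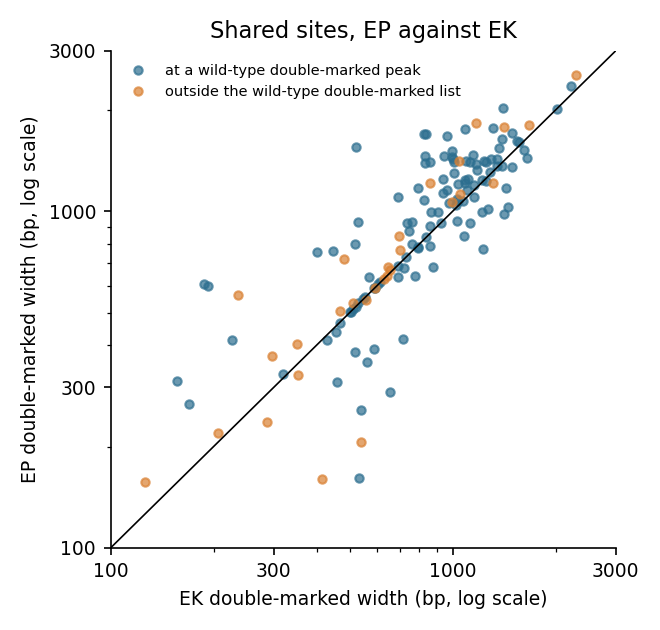
Double-marked width in EP (vertical axis, bp, log scale) against EK (horizontal axis, bp, log scale) at each of the 147 shared sites, blue for sites at a wild-type double-marked peak and orange for the others; the line marks equal width. Of the points, 90 lie above the line, 42 below and 15 on it.

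Double-marked sites of the mutants lay in protein-coding genes more often than the H3K4me3 peaks they came from, and more so where B6 had no double mark, a direction that H3K4me3 peaks without H3K36me3 also showed. Over all members it was 308 of 412 EP intervals (74.8%, 70.4 to 78.7%) and 193 of 243 EK intervals (79.4%, 73.9 to 84.0%) that overlapped the span of a protein-coding gene. Outside the B6 double-marked list, such a span was overlapped by 29 of 29 shared sites (100%, 88.3 to 100%), 69 of 74 EP-only sites (93.2%, 85.1 to 97.1%) and 54 of 56 EK-only sites (96.4%, 87.9 to 99.0%). At B6 double-marked peaks it was 80 of 118 shared sites (67.8%, 58.9 to 75.5%), 130 of 191 EP-only sites (68.1%, 61.1 to 74.3%) and 30 of 40 EK-only sites (75.0%, 59.8 to 85.8%). Among H3K4me3 peaks without H3K36me3 it was 1840 of 3291 in EP (55.9%) and 1696 of 3064 in EK (55.4%). Divided by the B6 list, these shares were 62.8% outside it and 42.5% at it in EP, and 58.2% and 44.7% in EK. In the B6 double-marked list it was 3414 of 6894 (49.5%). Within each side of the B6 list, the intervals of the 3 classes overlapped each other. Over whole classes the share was 87.5% of EK-only sites (84 of 96, 79.4 to 92.7%), 74.1% of shared sites (109 of 147, 66.5 to 80.5%) and 75.1% of EP-only sites (199 of 265, 69.5 to 79.9%), whose intervals overlap at their ends. Genes of another biotype alone held 7 shared, 10 EP-only and 2 EK-only sites, all at B6 double-marked peaks.

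**Figure D4:**
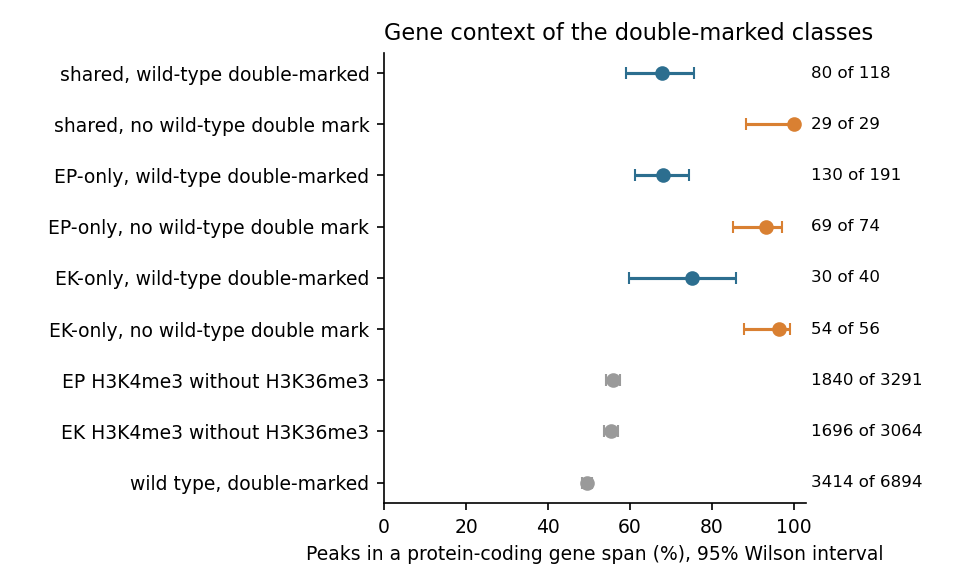
Share of sites in the span of a protein-coding gene (horizontal axis, %) with Wilson intervals, for the 3 classes at a wild-type double-marked peak (blue) and elsewhere (orange, shared sites as EP intervals), and for 3 reference lists (grey), which are not divided by the wild-type list. The orange points lie between 93.2 and 100%, the blue between 67.8 and 75.0% and the grey between 49.5 and 55.9%.

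Read as rates, double-marking in the mutants was listed less often outside than inside gene spans. The contrast was larger as a ratio where B6 was not double-marked, and larger as a difference where B6 was. Of EP H3K4me3 peaks outside the B6 double-marked list, 98 of 1466 in a gene span were double-marked in EP (6.68%, 5.52 to 8.08%), against 5 of 817 outside gene spans (0.612%, 0.262 to 1.43%). Of the EK peaks it was 82 of 1490 (5.50%, 4.46 to 6.78%) against 2 of 1013 (0.197%, 0.0542 to 0.717%). At B6 double-marked peaks the rates in EP were 30.9% in gene spans (211 of 683, 27.5 to 34.5%) and 13.3% outside (98 of 737, 11.0 to 15.9%). In EK they were 27.8% (111 of 399, 23.7 to 32.4%) and 11.9% (48 of 405, 9.06 to 15.4%). The intervals of EP and EK overlapped in each of these 4 settings, although EP had more sites. In B6 the order was the opposite, with 34.3% of H3K4me3 peaks in gene spans double-marked (3417 of 9949) and 41.0% of those outside (3475 of 8478). The opposite order also held in B6 at the peaks that EP kept, of which 31.8% in gene spans and 47.4% outside were double-marked in B6, and at those that EK kept, with 21.1% and 28.6%. Here a peak was placed by its H3K4me3 interval, so that 309 EP peaks counted as genic where 308 double-marked intervals did.

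**Figure D5:**
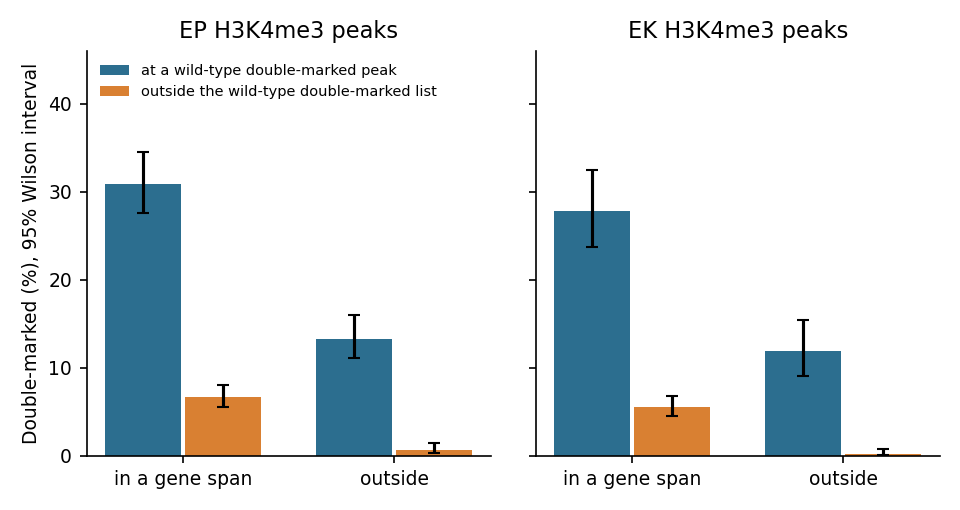
Share of EP (left) and EK (right) H3K4me3 peaks that were double-marked in the same mutant (vertical axis, %), for peaks in a protein-coding gene span and outside, at a wild-type double-marked peak (blue) or elsewhere (orange), with Wilson intervals. The highest bars are 30.9% (EP) and 27.8% (EK), and the lowest are 0.612% and 0.197%, for peaks outside both genes and the wild-type list.

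Among the 2659 EP H3K4me3 peaks that overlapped an EK H3K4me3 peak, H3K4me3 was listed in both mutants, although not always at the same width. In gene spans, 109 of 1525 were double-marked in both mutants (7.15%), 102 in EP alone (6.69%) and 60 in EK alone (3.93%, 3.07 to 5.03%). Outside gene spans, 38 of 1134 were double-marked in both (3.35%), 46 in EP alone (4.06%) and 10 in EK alone (0.882%, 0.480 to 1.62%). Double-marking in EK alone was thus the rarest outcome in both settings, and outside gene spans it was seen at 10 peaks.

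At B6 double-marked peaks, EK-only sites lay closer to gene starts than EP-only sites, with median distances of 7.75 kb (3.09 to 21.2 kb) and 51.2 kb (33.8 to 69.6 kb). Outside the B6 list the medians were 15.3 kb (6.63 to 23.7 kb) and 15.1 kb (11.5 to 31.8 kb). Shared sites (EP intervals) had 30.0 kb (21.1 to 59.1 kb) at B6 double-marked peaks and 10.4 kb (2.94 to 54.7 kb) outside the list. Over whole classes, the median distance from the nearest protein-coding transcription start was 38.6 kb at EP-only sites (27.3 to 48.8 kb), 25.6 kb at shared sites (EP intervals, 16.6 to 54.7 kb) and 10.2 kb at EK-only sites (5.95 to 19.6 kb). For H3K4me3 peaks without H3K36me3 it was 73.2 kb in EP and 66.8 kb in EK at B6 double-marked peaks, 34.1 and 38.2 kb outside that list, and 43.0 and 41.9 kb in all. Starts were known for 17492 of the 21887 protein-coding genes and for none on chromosome 18. The whole-class distances therefore cover 257 EP-only, 142 shared and 95 EK-only sites. A start missing from the reference could lie nearer to a site than the one used. The host gene spanned a median of 99.6 kb at EP-only, 81.5 kb at shared and 55.6 kb at EK-only sites (intervals 77.8 to 115.6, 47.4 to 127.3 and 43.8 to 65.5 kb), and the interval of shared sites overlapped both others. At B6 double-marked peaks it was 120.3 kb at EP-only (89.7 to 154.5 kb) and 71.6 kb at EK-only sites (28.8 to 93.2 kb). Outside that list it was 71.7 kb (38.5 to 99.6 kb) and 51.1 kb (33.3 to 58.4 kb), so these intervals overlapped on each side. For H3K4me3 peaks without H3K36me3 the median span was 100.7 kb in EP and 97.9 kb in EK. In sites with a single host gene of known strand, the median position was 42.4% of the span from its 5′ end at EP-only sites (33.4 to 49.8%, n = 154), 35.2% at shared sites (21.2 to 48.0%, n = 86) and 25.1% at EK-only sites (18.5 to 39.8%, n = 68). The EK-only sites at a B6 double-marked peak had a median of 13.7% (4.36 to 32.4%, n = 24) and those elsewhere 36.4% (23.8 to 47.7%, n = 44). H3K4me3 peaks without H3K36me3 had medians of 40.5% in EP and 37.0% in EK, and B6 double-marked peaks 49.8%. A protein-coding gene boundary within 1 kb was found for 13 shared, 15 EP-only and 5 EK-only sites (8.84, 5.66 and 5.21%). Of all H3K4me3 peaks it was 5.29% in EP and 5.66% in EK, and of B6 double-marked peaks 3.39%. Within 5 kb the shares of the classes were 36.7, 26.8 and 44.8%. Those of the EP and EK H3K4me3 peaks and the B6 double-marked peaks were then 24.1, 26.3 and 13.8%.

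Among shared sites at a B6 double-marked peak, the widest in a gene lay in Capzb (gene identifier 12345, the beta subunit of the actin capping protein) on chromosome 4, where the double-marked interval of EP ran from 139205639 to 139207991 and that of EK from 139205699 to 139207917. The double-marked interval was 2353 bp wide in EP, 2219 bp in EK and 5015 bp in B6. In Sptbn5 (640524), a beta-spectrin gene on chromosome 2, the EP interval at 120065363 to 120067381 was 2019 bp, the EK interval 2025 bp and the B6 interval 3057 bp, and each equalled its own H3K4me3 interval. Hmgn3 (94353), which encodes a nucleosome-binding protein, held 1706 bp in EP, 1496 bp in EK and 3281 bp in B6 at 83121401 to 83123106 on chromosome 9. These sites kept both marks over less than the wild-type width in both mutants. Nrg1 (211323, a ligand of ERBB receptors) had 1613 and 1546 bp against 4275 bp. At the shared promoter site in Dennd1b the widths were 799 bp in EP, 762 bp in EK and 1873 bp in B6.

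Shared sites without a double mark in B6 included the widest of all, in Dennd1a. This gene (227801), which encodes another exchange factor for Rab35, held 2547 bp in EP and 2291 bp in EK inside a B6 H3K4me3 peak of 3850 bp at 38136412 to 38138958 (EP) on chromosome 2. Dock3 (208869), which encodes an exchange factor for Rac, held 1810 and 1677 bp at 107051170 to 107052979 (EP) on chromosome 9, where the B6 H3K4me3 peak was 3372 bp wide. AW554918 (225289) held 1775 and 1417 bp on chromosome 18, where the B6 H3K4me3 peak was 3186 bp wide. Over the mutant intervals at these 3 sites, B6 was listed with H3K4me3 alone.

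The widest EP-only sites in genes at a B6 double-marked peak all kept an EK H3K4me3 peak. Fto (26383, an RNA demethylase) on chromosome 8 had an EP interval of 1759 bp at 91617528 to 91619286 and an EK H3K4me3 peak of 1860 bp, wider than the EP H3K4me3 peak of 1759 bp. Fcho1 (74015, endocytosis) had 1738 bp in EP and an EK H3K4me3 peak of 1650 bp. Fat4 (329628, a large protocadherin) had 1716 bp in EP and 1782 bp of H3K4me3 in EK, and Neb (17996, nebulin of the thin filament) 1679 and 1378 bp. At these 4 sites EK thus had H3K4me3 and no listed H3K36me3. Fat4 also held a shared site, with its EP interval at 38904471 to 38905925 on chromosome 3. At the Sumo3 promoter EP had 751 bp with both marks and EK 524 bp of H3K4me3, and at the Trpv3 promoter EP had 938 bp and EK no H3K4me3 peak.

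Outside the B6 double-marked list, the widest EP-only site lay outside genes, on chromosome 10 at 92680031 to 92682015, with 1985 bp in EP and an EK H3K4me3 peak of 2323 bp. The widest in gene spans were in Tg (21819, thyroglobulin) with 1683 bp, Ubr1 (22222, a ubiquitin ligase of the N-degron pathway) with 1664 bp, Zfp592 (233410, a zinc finger protein) with 1538 bp and Chn1 (108699, a GTPase-activating protein for Rac) with 1417 bp. EK had H3K4me3 over 1440, 1074, 928 and 828 bp there, less than EP in each.

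EK-only sites were narrower. At B6 double-marked peaks the widest lay outside genes on chromosome 1 at 134534402 to 134535691, with 1290 bp in EK, 2426 bp in B6 and an EP H3K4me3 peak of 1790 bp. The widest in a gene span was at the neighbouring genes Taf9 (a subunit of the transcription factor TFIID) and Ak6 (an adenylate kinase) on chromosome 13 at 100653615 to 100654860, with 1246 bp in EK, 1543 bp in B6 and no EP H3K4me3 peak. Among the other sites in gene spans, Htr1d (15552, a serotonin receptor) held 1051 bp, Epb41l2 (13822, a protein of the membrane skeleton) 1000 bp and Ksr2 (333050, a scaffold of MAP kinase signalling) 958 bp, and EP had H3K4me3 over 1638, 1029 and 1356 bp at these 3. The Epb41l2 site was 949 bp wide in B6, so that here the EK interval was the wider. Outside the B6 double-marked list the widest were in Dcaf8 (98193, a substrate receptor of CUL4 ligases) with 1506 bp, Med26 (70625, a Mediator subunit) with 1417 bp, Pex19 (19298, peroxisome assembly) with 1329 bp and Agtpbp1 (67269, a tubulin deglutamylase) with 1322 bp. EP had wider H3K4me3 peaks than EK at all 4, of 1601, 2093, 1657 and 1383 bp, without listed H3K36me3.

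EP intervals lay in 297 protein-coding genes and EK intervals in 189, which is 1.36% and 0.864% of all 21887. Of these, 112 genes were common, which is 37.7% of the EP genes (32.4 to 43.3%) and 59.3% of the EK genes (52.1 to 66.0%). A gene that overlaps both intervals of a shared site is common by construction, so these shares largely repeat those of the sites. Of the 82 genes with an EK-only site, 4 also held an EP-only site at a different position (4.88%, 1.91 to 11.9%), beside 197 of all 21887 protein-coding genes (0.900%) with an EP-only site. They were Bbs9 (part of the BBSome of cilia), Arid1a (a subunit of the BAF remodelling complex), Pdzd7 and 2310022B05Rik. Genes without a known PRDM9-dependent site could hold no listed interval. The share over all genes is therefore not a like background, and whether 4 is more than such a background would give was not tested. Of the 374 host genes, 25 held at least 2 distinct sites.

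Over all 21887 protein-coding genes, 374 held a mutant double-marked interval (1.71%). Of 37 genes of recombination and synapsis, 1 held a double-marked interval, Hormad1 (a protein of the meiotic chromosome axis), with an EK-only site of 502 bp on chromosome 3 at 95561196 to 95561697 that had H3K4me3 in EP and no double mark in B6. EP and EK H3K4me3 peaks lay in 2 and 3 of these genes and B6 H3K4me3 peaks in 7. Of 21 genes of histone lysine methylation, Kdm2b, which encodes an H3K36 demethylase, held a shared site of 798 bp in EP and 519 bp in EK at a B6 double-marked peak. Its paralog Kdm2a held an EK-only site of 443 bp with no EP H3K4me3 peak and no double mark in B6. No other member of these lists held a mutant double-marked interval.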

How the data were processed

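H3K4me3 and H3K36me3 ChIP-seq was measured in 9 libraries, which the titles place in 6 groups. The authors deposited 6 lists of peak positions (chromosome, start and end, with no score, signal or read count). The deposited description gives mm10 as the build and states that the listed peaks are those found at known PRDM9-dependent H3K4me3 sites. Per the submitters' processing notes, Trimmomatic, BWA 0.7.9a and MACS 1.4 were used, with no role given. The detection threshold and how the marks were combined are not given in the sources used here, and signal tracks were not used here. Read depth behind a peak is therefore unknown.

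Intervals counted as shared from 1 bp of overlap (Python 3.11.15, pandas 2.3.3). Shares have Wilson intervals (SciPy 1.17.1) and medians order-statistic intervals, both at 95%. With 1 library per H3K36me3 group no test was made. Overlap code was tested on simulated intervals. Gene spans (49943 genes, 21887 protein-coding), strands and starts came from RefSeq tables of GRCm38.p6. A strand was known for 17492 protein-coding genes, and exons were not used here. Named sites were, per class and wild-type status, the 4 widest in a protein-coding gene (by EP plus EK width where shared), up to 4 over a promoter window, and the widest; 1 of these sites is not reported here. Hormad1, Kdm2a, Kdm2b and the 4 genes with separate EP-only and EK-only sites were named after their values were seen, because the counts were small. Members and lists were chosen with earlier results of these data known. The alternatives tried are given at the end. Figures were drawn with matplotlib 3.10.9.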

Additional observations from a re-analysis of the deposited data

How the results depend on the processing

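Across 10 alternatives, 140 of 161 recomputed values stayed within the interval of the main value or within 1.5 times the main count. These included all values with an overlap of at least 50% of the shorter interval, with midpoints at most 500 bp apart, with peaks within 500 bp merged, on autosomes only, with sites matched by merged H3K4me3 intervals, with genes assigned by the midpoint, with genes of any biotype and without peaks near a gene boundary. With only intervals at least as wide as the median of their own list (206 EP and 122 EK), which by construction leaves fewer and wider sites, there were 77 shared, 129 EP-only and 45 EK-only sites with median widths of 1354 (EP intervals) and 1108 bp (EK intervals), 1076 bp and 930 bp. In that setting 88.3%, 80.6% and 55.6% of shared, EP-only and EK-only sites lay at a B6 double-marked peak, 84.4% of EK-only sites had an EP H3K4me3 peak, and 61.0%, 68.2% and 77.8% of the classes lay in a gene span. Divided by the B6 list, the gene share there was 55.9% of 68 shared sites at it, and 84.0% of 25 EP-only sites outside it. A gene boundary within 1 kb was then found for 2.60% of shared and 3.10% of EP-only sites. Raising the boundary limit to 5 kb gave 36.7%, 26.8% and 44.8% for shared, EP-only and EK-only sites. No replicate could be left out, since each genotype has 1 list of each kind. No paired analysis was possible because each H3K36me3 group has 1 library. The lists carry no score, so width stood in for a stricter threshold. Without read counts, a site missing from a list may lie just under detection.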

Other observations

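Some double-marked sites lay close together. In EP, 13 pairs of neighbouring intervals were at most 50 kb apart, and in EK 7. Tex14, which encodes a protein of the intercellular bridges between germ cells, held 2 EP-only sites 34.7 kb apart on chromosome 11, both at B6 double-marked peaks. Get3 and Trir on chromosome 8 held the same pair of shared sites in both mutants, 5.05 kb apart. In EK, 6 of the 7 pairs involved EK-only sites outside the B6 double-marked list, and in EP 5 of the 13 involved EP-only sites outside it. Such sites made up 56 of all 243 EK intervals and 74 of all 412 EP intervals. These are shares of single intervals, whereas a pair counted when either of its members was such a site. The counts of pairs are therefore not directly comparable with them. The EK pairs included those within Gpsm2 (0.928 kb apart), Naf1 (1.93 kb), Agtpbp1 (14.9 kb) and Cep85 (35.7 kb), and the pair of Pex19 and Dcaf8 on chromosome 1 (45.3 kb). The nearest double-marked interval of the same mutant lay within 50 kb for 11 of 96 EK-only sites (11.5%, Wilson interval 6.52 to 19.4%) and 18 of 265 EP-only sites (6.79%, 4.34 to 10.5%), and these intervals overlap.

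The classes were spread over all autosomes and the X chromosome. Chromosome 7 had 20 EP intervals and 5 EK intervals, of which 3 were shared, and chromosome 19 had 10 and 11, of which 4 were shared. The X chromosome held 3 shared, 6 EP-only and 1 EK-only sites. It held 2.2% of EP and 1.6% of EK double-marked intervals, beside 3.6% of EP and 3.2% of EK H3K4me3 peaks. At the edge of the overlap rule, Sinhcaf on chromosome 6 held an EP-only interval of 315 bp at a B6 double-marked peak and, 34 bp away, an EP interval of 157 bp that was shared with EK and had no double mark in B6. These chromosomes and genes were chosen after their values were seen.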
